A study of Mus musculus with 6 samples.

Results

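DNA damage response and repair genes were followed through the last step of mouse oocyte maturation. The set held 45 gene symbols, chosen by function: damage checkpoint kinases and their partners, and the enzymes of homologous recombination, end joining, base excision, nucleotide excision, mismatch repair and the Fanconi pathway. A gene was measured through every probe set that the array's annotation gave to that symbol alone. Of the 45, 43 genes had such a probe set, and they shared 81 of the 21646 probe sets tested. Trp53 and Xrcc2 were not analysed here.

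Both groups came from eCG-primed mice of 22 to 24 days, with 5 IU of eCG given 44 to 46 h earlier. GV oocytes are fully grown and arrested in prophase of the first meiotic division with an intact nucleus, the germinal vesicle. They were taken from large antral follicles and freed of cumulus cells by pipetting. MII oocytes are arrested at metaphase of the second division after extruding a polar body. For these, 5 IU of hCG followed the eCG, ovulated oocytes were recovered from the oviducts 14 h later, and hyaluronidase removed their cumulus cells. The collection medium held 5 µM milrinone, a phosphodiesterase 3 inhibitor that keeps GV oocytes from maturing, and it was used for both stages. The sources used here give no strain. Each stage had 3 samples, described by the submitters as biological replicates, and each sample was RNA of 300 pooled oocytes hybridised to 1 array after 2 rounds of amplification from 10 ng of total RNA. Equal RNA went into every labelling, so a value is a share of the RNA, and fewer transcripts per oocyte and a lower share cannot be told apart.

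A cell repairs DNA by routes that use different enzymes. Double-strand breaks are rejoined directly by end joining, in which the Ku heterodimer and DNA-PKcs hold the ends for the XRCC4 and ligase IV complex, or are copied from a homologous template by recombination, which uses the MRE11-RAD50-NBN complex, the BRCA proteins and their partners. Damaged bases, bulky adducts and replication errors are removed by base excision, nucleotide excision and mismatch repair. ATM and ATR are the kinases that signal damage to the effector kinases CHK1 and CHK2. A maturing oocyte makes little or no new RNA, so its transcripts come from a store laid down during growth, part of which is broken down during maturation.

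The promoter windows of 5 members are printed to show the letters around the starts of genes whose transcripts went different ways: Xrcc5 and Mre11a, whose values were lower in MII oocytes, Emsy, whose values were higher, and Brca2 and Msh6, which were not called on the deposited scale. Each window runs 5′ to 3′ on the gene's strand, from 250 bases before a listed start to 50 bases after it, on GRCm38.p6. The listed start nearest the 5′ edge of the RefSeq gene was taken. It lay at that edge for Mre11a and Msh6, 4 bases from it for Xrcc5, 250 for Emsy and 324 for Brca2. The windows lie at chr1:72307171-72307470 on the plus strand for Xrcc5, chr9:14784404-14784703 on the plus strand for Mre11a, chr7:98656528-98656827 on the minus strand for Emsy, chr5:150522371-150522670 on the plus strand for Brca2 and chr17:87974800-87975099 on the plus strand for Msh6. Capitals mark matches, on either strand, to any of 6 motifs searched: CCAAT, the GC box GGGCGG, an E2F site (TTTCCCGC, TTTCGCGC, TTTGGCGC or TTTGCCGC), an ETS site CCGGAAGT, an NRF1 site and the cyclic AMP element TGACGTCA.
Xrcc5: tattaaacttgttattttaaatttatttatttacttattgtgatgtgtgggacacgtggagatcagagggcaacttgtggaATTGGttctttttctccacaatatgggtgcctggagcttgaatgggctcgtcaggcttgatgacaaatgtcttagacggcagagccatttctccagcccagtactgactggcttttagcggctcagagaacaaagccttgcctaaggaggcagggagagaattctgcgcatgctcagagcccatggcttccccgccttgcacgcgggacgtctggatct
Mre11a: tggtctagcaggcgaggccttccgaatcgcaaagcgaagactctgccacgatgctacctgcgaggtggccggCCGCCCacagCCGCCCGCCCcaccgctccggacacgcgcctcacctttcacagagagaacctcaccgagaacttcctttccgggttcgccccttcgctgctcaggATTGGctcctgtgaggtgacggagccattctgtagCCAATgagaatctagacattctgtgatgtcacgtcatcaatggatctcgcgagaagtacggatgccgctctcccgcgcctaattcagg
Emsy: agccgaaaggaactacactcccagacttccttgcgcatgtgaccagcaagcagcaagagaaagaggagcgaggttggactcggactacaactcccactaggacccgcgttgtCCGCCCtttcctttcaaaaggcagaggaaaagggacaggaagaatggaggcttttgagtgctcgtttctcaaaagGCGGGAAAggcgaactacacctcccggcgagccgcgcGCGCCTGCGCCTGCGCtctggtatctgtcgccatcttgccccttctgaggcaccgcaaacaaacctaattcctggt
Brca2: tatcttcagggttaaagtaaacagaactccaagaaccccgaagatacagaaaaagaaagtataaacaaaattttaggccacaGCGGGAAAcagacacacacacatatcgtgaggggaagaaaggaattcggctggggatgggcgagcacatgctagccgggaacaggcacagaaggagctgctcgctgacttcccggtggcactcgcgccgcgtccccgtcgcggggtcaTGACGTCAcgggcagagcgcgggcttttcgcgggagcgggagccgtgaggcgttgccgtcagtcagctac
Msh6: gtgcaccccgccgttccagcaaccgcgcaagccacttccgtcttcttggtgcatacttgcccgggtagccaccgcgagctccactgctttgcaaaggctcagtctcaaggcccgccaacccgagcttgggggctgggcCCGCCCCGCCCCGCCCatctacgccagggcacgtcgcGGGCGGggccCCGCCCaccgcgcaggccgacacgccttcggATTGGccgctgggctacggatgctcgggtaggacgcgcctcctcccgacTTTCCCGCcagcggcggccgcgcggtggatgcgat

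A window was found for 35 of the 43 measured members. Its start lay farthest from the RefSeq gene edge for Fancc (65547 bases), Xrcc6 (28536) and Trp53bp1 (24947). E2F letters stood in 8 of the 35 member windows (22.9%) and in 2.94% of 17492 windows of protein-coding genes. The 8 members were Brca2, Chek2, Emsy, Mdc1, Msh3, Msh6, Rad51c and Xrcc6, of which 3 had values called higher in MII oocytes, 3 lower and 2 neither. This count takes the probe set with the highest mean. Msh3 and Rad51c, among the higher, also had probe sets called lower. The GC box stood in 68.6% of member windows against 46.3% of all windows, CCAAT in 57.1% against 39.2%, the NRF1 letters in 17.1% against 6.66%, the ETS letters in 8.57% against 5.28% and the cyclic AMP element in 1 member, Brca2 (2.86% against 2.33%). The median GC content was 60.0% in member windows and 56.3% in all windows. Matches can share letters with one another, as the 2 NRF1 matches of Emsy do, and a match is a description of the letters alone. In the windows shown, Xrcc5 held 1 CCAAT match, Mre11a held 2 CCAAT matches and 3 GC boxes, and Msh6 held 1 CCAAT match, 5 GC boxes and 1 E2F match.

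Values are log2 signals as deposited, differences are MII minus GV on the log2 scale with their SE, and a gene is described by its probe set with the highest mean over the 6 samples. A difference was called when limma's moderated test gave an adjusted p under 0.05 over all 21646 probe sets. The median of the tested probe sets was 6.10 to 6.12 on the GV arrays and 5.47 to 5.49 on the MII arrays. Equal array medians therefore moved every difference up by 0.62, quantile normalization moved the median up by 0.34, equal hybridization controls moved it down by 0.40, and equal poly-A controls moved it down by 0.87. The hybridization controls of GV replicate 1 averaged 9.82, against 8.97 and 8.94 on the other GV arrays. When that array was left out of the comparison too, this scaling moved every difference among the remaining 5 arrays by -0.69. The poly-A controls averaged 4.71, 4.28 and 4.31 on the GV arrays and 5.14, 5.43 and 5.34 on the MII arrays. Each of these means lay below the median of its array, and the part of background signal in the poly-A scaling was not tested. Oocyte markers averaged 10.82 to 10.90 in GV and 9.87 to 10.08 in MII samples, with all 15 measured markers above the median of all probe sets. Of these 15, 7 were called lower in MII oocytes (46.7%, where 37.8% of all genes were) and 3 higher. Of 7 measured granulosa and cumulus markers, 4 were called lower in MII oocytes (57.1%) and none higher. With equal array medians, and with quantile normalization, 1 of the 7 was lower and 2 were higher. The mean level of these markers was 5.21 to 5.24 in GV and 4.63 to 4.75 in MII samples, and its part in the results was not tested. The 5 measured cumulus expansion genes lay at mean levels of 2.67 to 2.86 in GV and 2.72 to 2.86 in MII samples, and the 3 blood and immune markers at 3.40 to 3.60 and 3.39 to 3.45.

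Repair genes moved in both directions between the stages. In MII oocytes, 20 of the 43 members were called lower (46.5%, where 37.8% of all 11429 genes were) and 11 were called higher (25.6%, where 10.5% of all genes were). Of the 11 higher members, 6 (Chek1, Rad51c, Rad51d, Lig3, Parp1 and Msh3) had another probe set called lower. With the mean over a gene's probe sets 5 members were higher and 23 lower, a rule for which no share of all genes is given here. The other 12 members were not called on the deposited scale. With equal array medians 10 of these were called higher (83.3%, where 52.2% of all genes were). With equal poly-A controls 10 were called lower (83.3%, where 86.5% of all genes were). No share is given here for all genes that were likewise not called as deposited. The median difference was -0.27 over the members and -0.20 over all genes. The members ranged from -4.47 for Xrcc5, a subunit of Ku, to 1.62 for Emsy, which encodes a BRCA2 partner. The lowest MII value lay above the highest GV value, or the highest MII value below the lowest GV value, for 32 members (74.4%, against 57.9% of all genes). A fall of at least 2-fold was called for 15 members (34.9%, against 23.1%), and the same size of rise for 3 (Emsy, Rad51c and Rad52), where 1.29% of all genes had one.

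The scale between arrays moved most calls, among the members as among all genes. Lower calls held under all 5 scalings for 15 members: Atr, Rad50, Mre11a, Nbn, Xrcc5, Xrcc6, Prkdc, Xrcc1, Parp2, Apex1, Polb, Xpc, Ercc1, Ercc5 and Fanca. That is 34.9% of members, and 22.2% of all genes were lower under all 5. Of the 11 rises, Emsy alone was called under every scaling. Over all genes, 58.7% of the falls and 2.57% of the rises held under all 5, and both scalings by controls shift every difference down. With equal array medians 21 members were higher (48.8%, against 52.2% of all genes) and 15 lower (34.9%, against 22.5%). With quantile normalization 19 were higher (44.2%, against 34.5%) and 15 lower (34.9%, against 24.5%). With equal hybridization controls 1 was higher (2.33%, against 0.437%) and 20 lower (46.5%, against 36.7%). With equal poly-A controls 1 was higher (2.33%, against 0.271%) and 30 lower (69.8%, against 86.5%). The members' share of rises was thus above that of all genes on the deposited scale and below it with equal array medians, and their share of falls was below that of all genes with poly-A controls. The count of rises also moved with single samples, to 6 without GV replicate 2, to 7 without MII replicate 1 and to 7 without MII replicate 3, while 18 to 19 members were lower without any 1 sample.

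**Figure D1:**
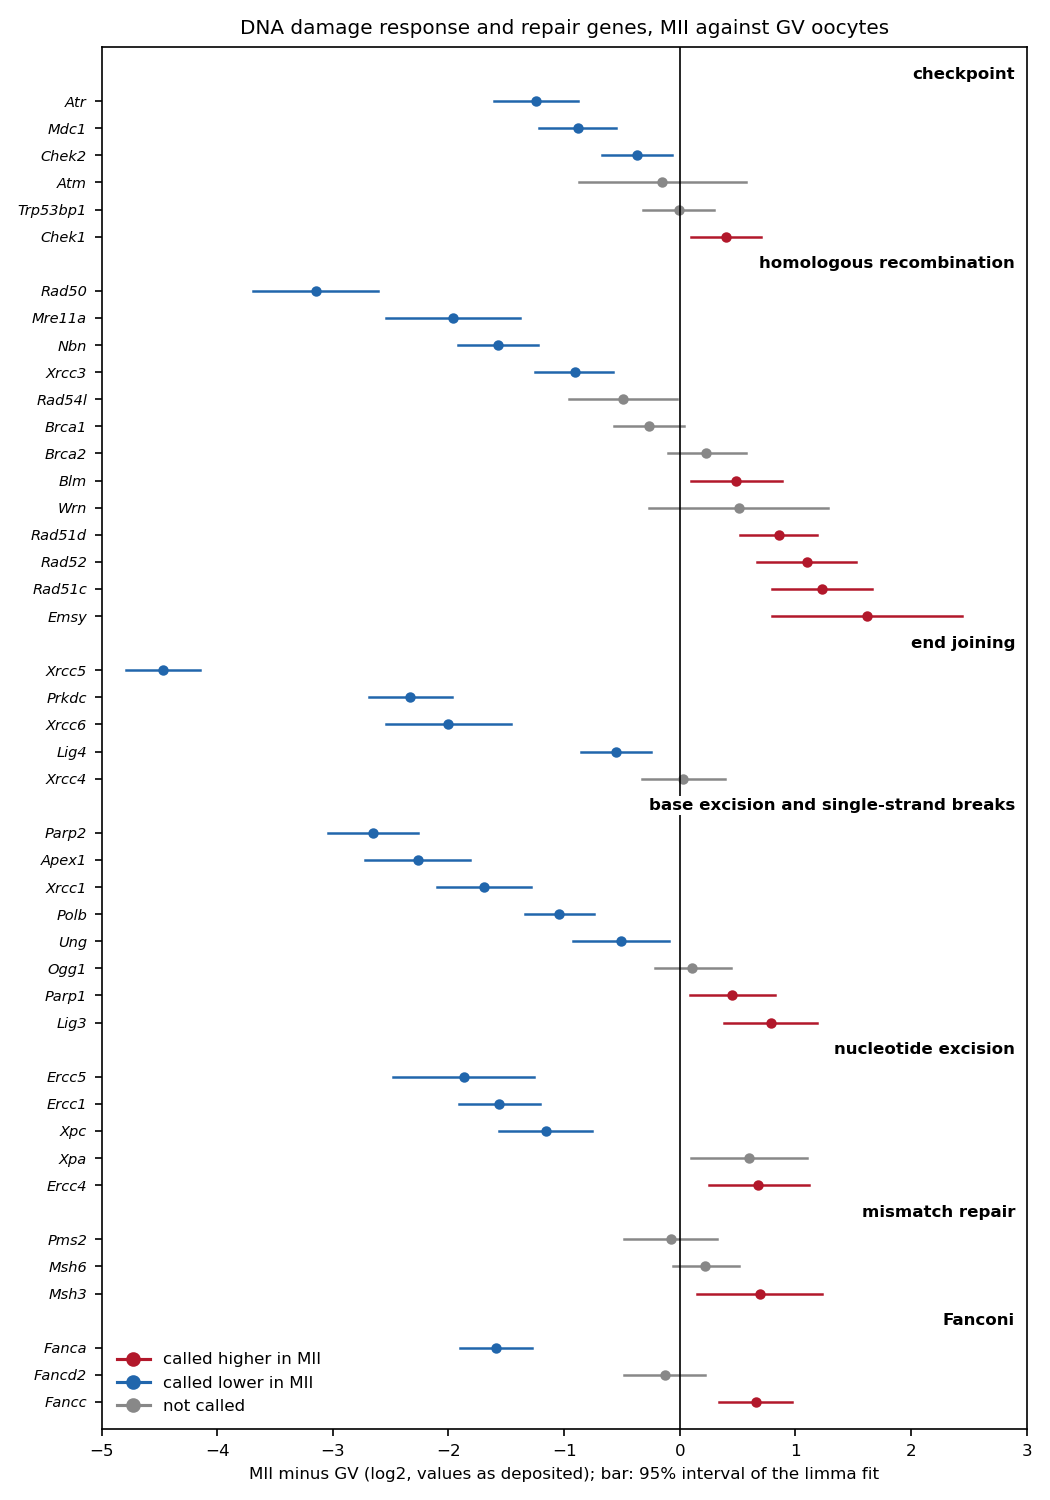
Difference between the stages (MII minus GV, log2) for the 43 measured members by repair group, with 95% confidence intervals from limma over 3 GV and 3 MII samples as bars and the call as colour. The longest falls are Xrcc5 (-4.47) and Rad50 (-3.15) and the longest rise is Emsy (1.62); calls of the smaller rises are lost when control features set the scale.

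The 5 end-joining members had the lowest group median, -2.00, with 4 called lower (80%, where 37.8% of all genes were). In contrast, 5 other measured genes of the route had a median of 0.18. Xrcc5 encodes KU80, which with KU70 forms the ring that binds broken ends. Xrcc5 read 8.10, 8.31 and 8.23 in the GV samples and 3.58, 3.89 and 3.76 in the MII samples. Every GV sample lay above the median of its array and every MII sample below it. The difference was -4.47 ± 0.14 (adjusted p = 2.1e-08), a lower bound in size where the dim MII signal is background.

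Xrcc6, the gene of KU70, read 7.37, 7.67 and 7.64 in GV and 6.17, 5.19 and 5.32 in MII samples. The stages did not overlap, and MII replicate 1 kept the highest MII value. The difference was -2.00 ± 0.24 (adjusted p = 6.9e-05). Prkdc encodes DNA-PKcs, the kinase that Ku recruits. Its values were 6.33, 5.84 and 5.94 in GV and 3.81, 3.69 and 3.62 in MII samples, again without overlap, and it fell by 2.33 ± 0.16 on the log2 scale (adjusted p = 1.2e-06).

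The ligation step of end joining gave smaller values. Lig4, the ligase itself, read 9.47, 9.30 and 9.22 in GV and 8.85, 8.75 and 8.76 in MII samples. It was called lower, by -0.55 ± 0.13 (adjusted p = 0.0077), although with equal array medians the value turned to 0.08. Xrcc4, the scaffold of the ligase, read 5.81, 6.25 and 6.08 against 5.91, 6.26 and 6.07, so the stages overlapped throughout. Its difference was 0.03 (95% interval -0.33 to 0.39, adjusted p = 0.89), a value called higher at 0.66 with equal array medians and 0.68 with quantile normalization, not called at -0.37 with equal hybridization controls and called lower at -0.84 with equal poly-A controls. Of the 5 genes, Xrcc5, Xrcc6 and Prkdc were lower under all 5 scalings.

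Among the 13 genes of homologous recombination, 5 were called higher (38.5%, where 10.5% of all genes were) and 4 lower (30.8%, where 37.8% were), with a median of 0.23. This balance followed the scale. With equal array medians 8 were higher (61.5%, against 52.2% of all genes) and 3 lower (23.1%, against 22.5%). With quantile normalization 7 were higher (53.8%, against 34.5%) and 3 lower (23.1%, against 24.5%). With equal hybridization controls 1 was higher (7.69%, against 0.437%) and 5 lower (38.5%, against 36.7%). With equal poly-A controls 1 was higher (7.69%, against 0.271%) and 7 lower (53.8%, against 86.5%). The complex that first binds and trims a broken end was lower in all its 3 subunits under every scaling. Rad50, its ATPase with long coiled coils, read 9.18, 9.42 and 9.06 in GV and 6.50, 5.47 and 6.24 in MII samples. Every GV value lay more than 2 log2 units above every MII value, and the difference was -3.15 ± 0.24 (adjusted p = 2.6e-06).

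Mre11a, the nuclease of the complex, read 7.20, 7.42 and 6.87 in GV and 5.72, 4.61 and 5.28 in MII samples, a difference of -1.96 ± 0.26 (adjusted p = 0.00014). Nbn, the subunit that recruits ATM, read 6.72, 7.04 and 6.66 in GV and 5.12, 5.38 and 5.20 in MII samples, a difference of -1.57 ± 0.15 (adjusted p = 1.5e-05). Neither gene's stages overlapped, and all MII values of Nbn lay below their array medians. The 2 MII samples other than replicate 1 gave the lower readings of Rad50 and Mre11a.

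Transcripts of the BRCA proteins were close to level on the deposited scale. Brca1, whose product promotes end resection, read 10.27, 10.34 and 10.20 in GV and 9.97, 9.88 and 10.16 in MII samples. The MII values were all below the GV values, but the difference of -0.27 (95% interval -0.57 to 0.04) was not called (adjusted p = 0.15), and it was called higher at 0.36 with equal array medians and lower at -1.14 with equal poly-A controls. Another of the 4 Brca1 probe sets was called lower, at -0.55 ± 0.17 (adjusted p = 0.026), and the other 2 were at 0.06 and -0.08. Brca2, whose product acts on single-stranded DNA in recombination, read 9.52, 9.94 and 9.79 in GV and 9.89, 10.04 and 10.03 in MII samples. The stages overlapped in GV replicate 2, and the difference of 0.23 (95% interval -0.10 to 0.57, adjusted p = 0.24) was not called. It was called higher at 0.86 with equal array medians and 0.57 with quantile normalization, was at -0.17 with equal hybridization controls and was called lower at -0.64 with equal poly-A controls.

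Emsy had the largest rise of the set. Its product binds BRCA2 and represses transcription. The brightest Emsy probe set read 8.15, 6.59 and 6.89 in GV and 9.07, 9.10 and 8.33 in MII samples. The stages did not overlap, though GV replicate 1 came close to the lowest MII value. The difference was 1.62 ± 0.37 (adjusted p = 0.0048), and it ranged from 1.31 to 2.09 when 1 sample was left out. It was called under all 5 scalings, between 0.75 with equal poly-A controls and 2.25 with equal array medians, but not in the limma fit without moderation of the variance (adjusted p = 0.092). The other 2 Emsy probe sets, at 0.16 and 0.09, were not called.

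Rad51c, Rad52 and Rad51d gave the next largest rises of this group. Rad52, an annealing protein, read 6.34, 6.09 and 6.75 in GV and 7.68, 7.29 and 7.48 in MII samples, without overlap and with a difference of 1.10 ± 0.19 (adjusted p = 0.00088). The call was lost at 0.69 with equal hybridization controls and at 0.22 with equal poly-A controls. The brightest Rad51c probe set read 8.11, 7.74 and 8.31 in GV and 9.59, 9.17 and 9.08 in MII samples, a difference of 1.23 ± 0.19 (adjusted p = 0.00045), with the call lost at 0.82 and 0.36 under the same scalings. The brightest Rad51d probe set gave 0.86 ± 0.15 (adjusted p = 0.00092), a value of 0.45 and -0.02 under those scalings, while another probe set of each gene was called lower. Xrcc3, which encodes a binding partner of the Rad51c product, was lower in both its probe sets, by -0.91 and -2.85. The call of the brighter one was lost at -0.29 with equal array medians and -0.27 with quantile normalization.

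The helicase and motor genes of recombination gave small or split values. Blm, the Bloom syndrome helicase, was called higher at 0.49 ± 0.17 (adjusted p = 0.043), a call lost at 0.09 with equal hybridization controls and turned to -0.38 with equal poly-A controls. Wrn, the Werner syndrome helicase, was at 0.51 in its brightest probe set, which was not called as deposited but was called higher at 1.13 with equal array medians, and a dimmer probe set was called lower at -0.68. Rad54l, a motor protein of recombination, was not called at -0.49 (95% interval -0.96 to -0.02, adjusted p = 0.086), while its other 2 probe sets were lower at -1.62 and -1.42.

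**Figure D2:**
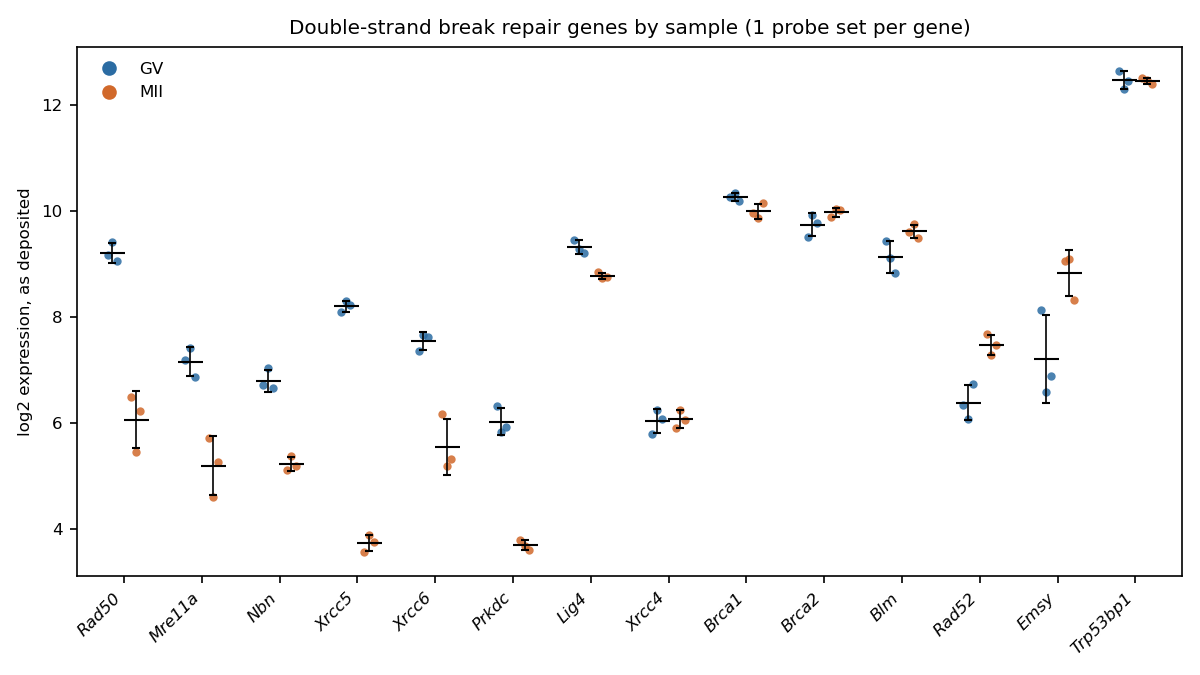
Log2 signal of double-strand break repair members in each of the 3 GV and 3 MII samples, with the stage mean and its SD (n = 3) in black. The stages are well apart for Xrcc5, Rad50 and Prkdc, while the values of Brca2 overlap; levels are to be compared between stages of 1 gene, not between genes.

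Of the 6 checkpoint genes, 3 were called lower (50%, where 37.8% of all genes were) and 1 higher (16.7%, where 10.5% were). Of those 4 calls, 3 differed between scalings. Atr, the kinase that senses single-stranded DNA, was the exception: it was lower under all 5. Atr read 8.26, 7.90 and 7.95 in GV and 6.71, 6.64 and 7.03 in MII samples. The stages were separated, and the difference was -1.24 ± 0.16 (adjusted p = 0.00013). A second Atr probe set, below the array median in every sample, gave -0.02 and was not called.

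Atm, the kinase that answers double-strand breaks, read 5.28, 5.35 and 5.65 in GV and 5.62, 4.38 and 5.83 in MII samples. MII replicate 2 was the lowest of the 6 and MII replicate 3 the highest. The difference of -0.15 had a wide interval (95%, -0.87 to 0.57, adjusted p = 0.74) and turned to 0.29 without MII replicate 2, to 0.47 with equal array medians and to 0.41 with quantile normalization, and it was called lower at -1.02 with equal poly-A controls.

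Chek1, the effector kinase downstream of ATR, was measured by 5 probe sets. The brightest read 11.65, 11.46 and 11.41 in GV and 11.91, 11.93 and 11.88 in MII samples. These stages did not overlap, but the difference was small, 0.40 ± 0.13 (adjusted p = 0.033), and it was 0.00 with equal hybridization controls and -0.47 with equal poly-A controls. Another 3 probe sets were also called higher, at 0.43, 0.47 and 0.66. The remaining one went the other way, from 10.75, 11.03 and 11.14 in GV to 9.40, 8.91 and 8.98 in MII samples, a difference of -1.87 ± 0.17 (adjusted p = 1e-05).

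Chek2, the effector kinase downstream of ATM, was below the array median in every sample, at 2.80, 2.82 and 2.83 in GV and 2.45, 2.31 and 2.59 in MII samples. Its call (-0.37 ± 0.13, adjusted p = 0.049) was near the threshold and the value turned to 0.26 with equal array medians. Mdc1, the scaffold that binds phosphorylated H2AX, also lay below the median throughout and was lower by -0.88 ± 0.15 (adjusted p = 0.00081), a call lost at -0.26 with equal array medians. Trp53bp1, which steers breaks towards end joining, was at -0.01 (95% interval -0.32 to 0.30) and was not called, and it was called higher at 0.61 with equal array medians and lower at -0.88 with equal poly-A controls.

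Base excision and single-strand break repair held 8 members, with a median of -0.77. Of these, 5 were called lower (62.5%, where 37.8% of all genes were) and 2 higher (25%, where 10.5% were). Apex1, the endonuclease that cuts at abasic sites, was lower in all 3 of its probe sets. The brightest read 9.27, 9.65 and 9.04 in GV and 6.71, 7.31 and 7.15 in MII samples. The stages lay well apart, with a difference of -2.26 ± 0.20 (adjusted p = 8.1e-06), and the other 2 gave -1.52 and -3.19.

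Parp2 encodes a polymerase that marks strand breaks with poly(ADP-ribose). It read 6.24, 6.50 and 6.63 in GV and 3.86, 4.04 and 3.52 in MII samples, so every MII value fell below its array median. The difference was -2.65 ± 0.17 (adjusted p = 8.7e-07). Xrcc1, the scaffold of single-strand break repair, read 8.19, 8.51 and 8.04 in GV and 6.25, 6.74 and 6.66 in MII samples, also without overlap. The difference was -1.69 ± 0.18 (adjusted p = 2.7e-05). Polb, the polymerase that fills the gap, was lower by -1.04 and -1.45 in its 2 probe sets.

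The remaining members of this group were less clear. Parp1, the main poly(ADP-ribose) polymerase, read 8.31, 8.61 and 8.87 in GV and 9.12, 8.96 and 9.08 in MII samples in its brightest probe set. That difference was 0.45 ± 0.16 (adjusted p = 0.047), and it was 0.05 with equal hybridization controls and -0.42 with equal poly-A controls. Another Parp1 probe set went from 7.46, 7.09 and 7.05 to 5.27, 5.56 and 5.06, a difference of -1.91 ± 0.18 (adjusted p = 1e-05). Ung, the uracil glycosylase, was called lower at -0.51 ± 0.18 (adjusted p = 0.048) and turned to 0.12 with equal array medians. Ogg1, the 8-oxoguanine glycosylase, was at 0.11 (95% interval -0.21 to 0.44) and was not called. It was called higher at 0.74 with equal array medians and 0.70 with quantile normalization, was at -0.29 with equal hybridization controls and was called lower at -0.76 with equal poly-A controls.

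Nucleotide excision held 5 members, of which 3 were lower under all 5 scalings (60%, where 22.2% of all genes were). Ercc5, the nuclease that cuts 3′ of a lesion, read 7.07, 6.32 and 5.90 in GV and 4.75, 4.69 and 4.25 in MII samples. The GV samples were spread but stayed above every MII sample, and the difference was -1.87 ± 0.27 (adjusted p = 0.00027). Ercc1, the partner of the 5′ nuclease, was lower in both probe sets (-1.56 and -1.65), and the damage sensor Xpc was lower by -1.16 ± 0.18 (adjusted p = 0.00043). Ercc4, the 5′ nuclease itself, and Xpa, which verifies the lesion, lay below the array median in every sample. Ercc4 was called higher at 0.68 ± 0.19 (adjusted p = 0.016), a value of 0.28 with equal hybridization controls and -0.19 with equal poly-A controls, and Xpa was not called at 0.60 (adjusted p = 0.052), which was called higher at 1.22 with equal array medians and turned to -0.27 with equal poly-A controls.

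**Figure D3:**
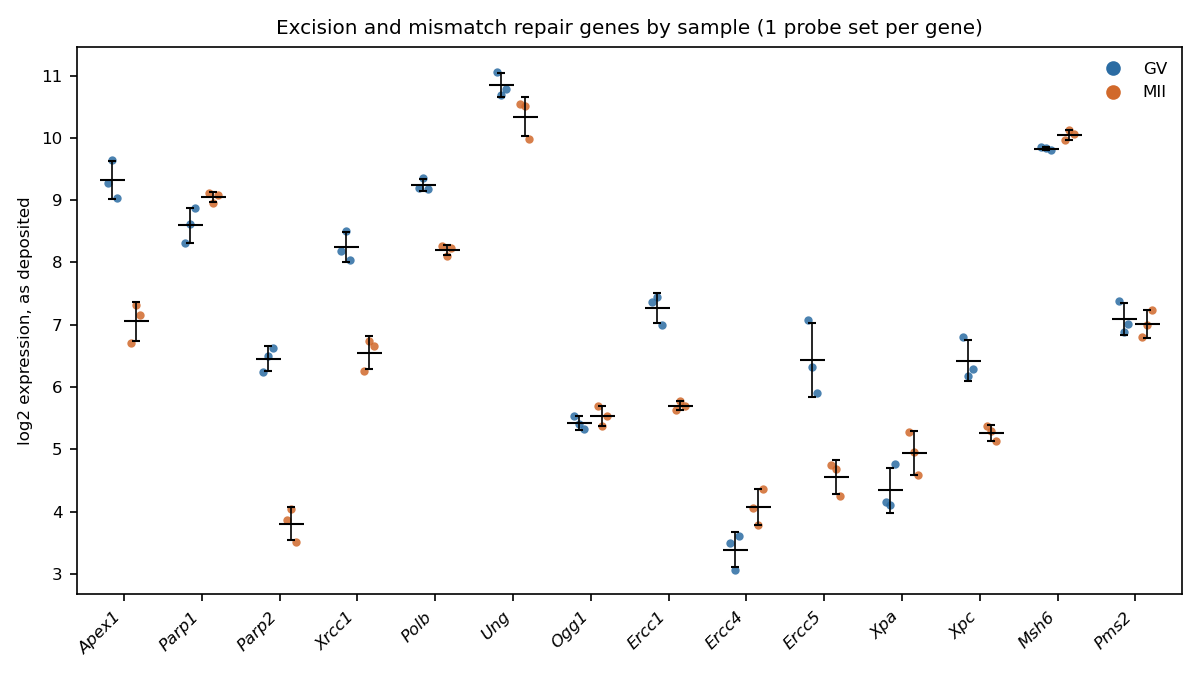
Log2 signal of excision and mismatch repair members in each of the 3 GV and 3 MII samples, with the stage mean and its SD (n = 3) in black. Apex1, Parp2, Xrcc1 and Ercc5 have no MII value as high as any GV value; levels are to be compared between stages of 1 gene, not between genes.

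On the deposited scale 1 of the 3 mismatch repair members was called, as higher (33.3%, where 10.5% of all genes were). All 3 were called higher with equal array medians (median 0.85), where 52.2% of all genes were. The same held with quantile normalization (median 0.58), where 34.5% of all genes were. With equal poly-A controls 2 were called lower (66.7%, where 86.5% of all genes were). Msh6, which recognises single mismatches, read 9.85, 9.83 and 9.80 in GV and 9.96, 10.12 and 10.07 in MII samples. The MII values were all above the GV values, yet the difference of 0.22 (95% interval -0.06 to 0.51, adjusted p = 0.19) was not called. It was called higher at 0.85 with equal array medians and 0.56 with quantile normalization, was at -0.18 with equal hybridization controls and was called lower at -0.65 with equal poly-A controls. Pms2, a subunit of the endonuclease that acts after recognition, was at -0.08 and its other 2 probe sets at 0.01 and -0.06; limma called none of them as deposited. The brightest was called higher at 0.54 with equal array medians and 0.58 with quantile normalization, and lower at -0.95 with equal poly-A controls. Msh3, which recognises insertion and deletion loops, was the 1 called gene of the 3, and its probe sets disagreed.

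The 3 Fanconi members gave 3 different results. Fanca, a subunit of the core complex that responds to crosslinks, read 6.72, 7.02 and 6.85 in GV and 5.18, 5.30 and 5.34 in MII samples. The MII values were tight and all below their array medians, with a difference of -1.59 ± 0.14 (adjusted p = 6.6e-06). A second, dimmer Fanca probe set gave 0.10 and was not called. Fancc, another core subunit, rose by 0.66 ± 0.14 (adjusted p = 0.0035) in its brightest probe set and by 0.45 in the next, values that reached 0.25 for the brightest with equal hybridization controls and -0.22 with equal poly-A controls. Fancd2, which the core complex ubiquitinates, was at -0.13 (95% interval -0.48 to 0.22) and was not called. It was called higher at 0.50 with equal array medians and 0.49 with quantile normalization, and lower at -1.0 with equal poly-A controls.

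Several probe sets existed for 22 members, and in 6 of them (27.3%, against 10.8% of the genes with several probe sets) 1 was called higher and another lower: Chek1, Rad51c, Rad51d, Lig3, Parp1 and Msh3. For these genes a single direction cannot be given. A probe set reads a short stretch of a transcript, and types ending in a, s or x can match several transcripts. Counted by probe set, 37 of the 81 were called lower (45.7%, against 34.1% of all probe sets) and 15 higher (18.5%, against 10.9%). The stages did not overlap in 54 of the 81 (66.7%, against 54.0%). Among the 21 members read by 1 probe set, 14 were called lower (66.7%, against 37.4% of all genes read by 1 probe set) and 3 higher (14.3%, against 8.25%).

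Rad51c was split over its 2 probe sets. Against the rise of its brightest probe set, the other read 8.60, 8.59 and 8.64 in GV and 7.29, 6.18 and 6.73 in MII samples, a difference of -1.88 ± 0.24 (adjusted p = 0.00011). Both probe sets had stages that did not overlap. The brightest Rad51d probe set read 5.23, 5.39 and 5.61 in GV and 6.26, 6.39 and 6.16 in MII samples, with every GV value below its array median. A second read 5.81, 6.08 and 5.79 in GV and 5.21, 4.56 and 5.00 in MII samples, below the array median throughout. Its difference was -0.97 ± 0.18 (adjusted p = 0.0016), and another Rad51d probe set, at -0.03, was not called.

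Lig3 encodes the ligase that works with XRCC1. Its brightest probe set read 8.20, 7.95 and 8.42 in GV and 9.23, 9.00 and 8.70 in MII samples, a rise of 0.79 ± 0.18 (adjusted p = 0.0052), which was 0.38 with equal hybridization controls and -0.08 with equal poly-A controls. Another 2 were lower, at -1.02 and -0.76, and the last was at -0.48 and not called. The brightest Msh3 probe set read 6.86, 6.95 and 7.76 in GV and 7.95, 7.61 and 8.10 in MII samples, with GV replicate 3 inside the MII range. Its difference was 0.69 ± 0.24 (adjusted p = 0.04), and it was 0.29 with equal hybridization controls and -0.18 with equal poly-A controls. The other 2 Msh3 probe sets were lower, at -0.56 ± 0.15 (adjusted p = 0.014) and -0.39 ± 0.14 (adjusted p = 0.042).

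**Figure D4:**
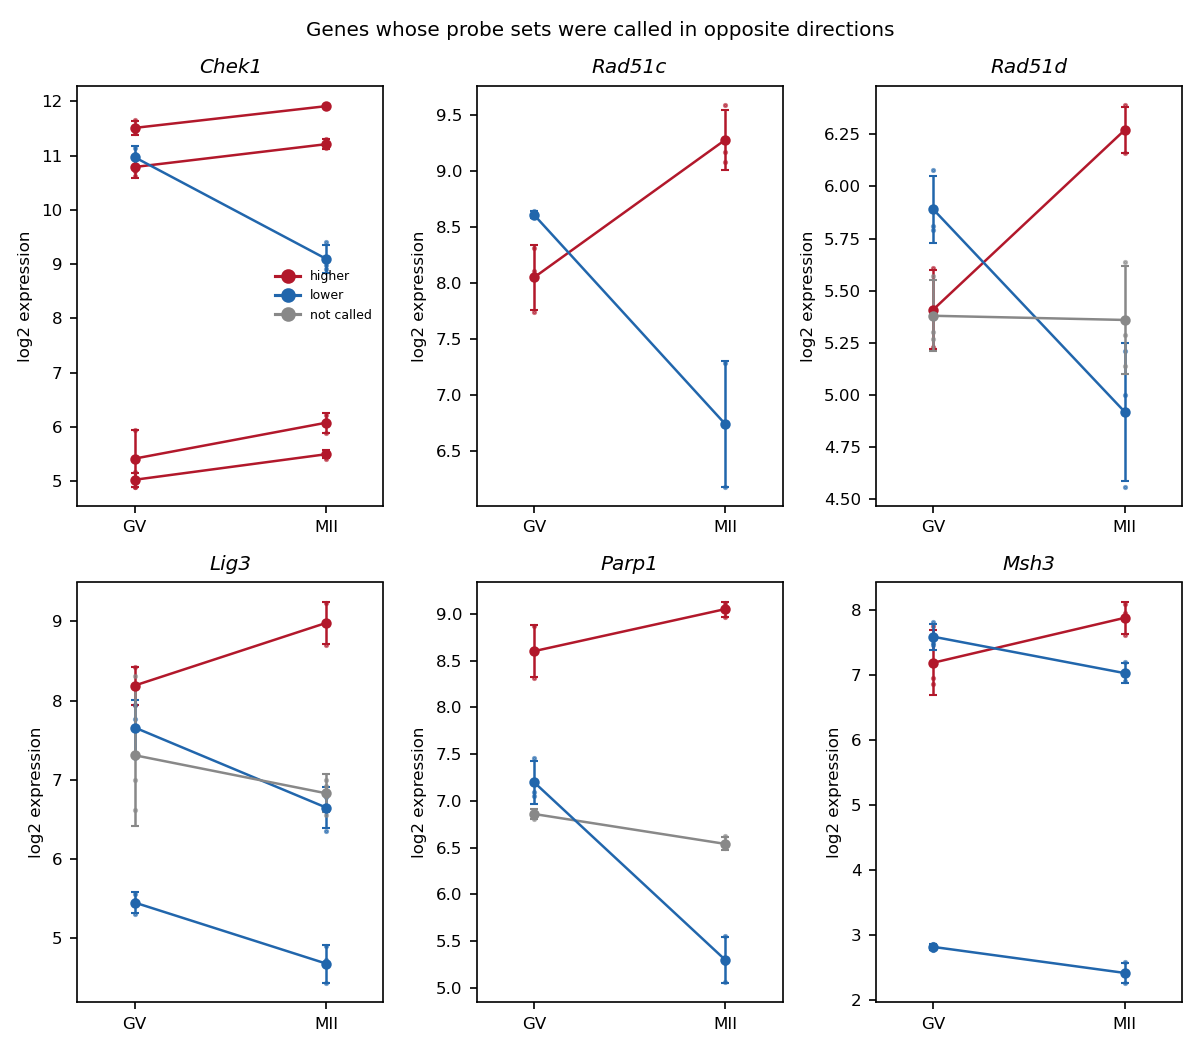
Log2 signal at each stage of every probe set of the 6 members whose probe sets were called in opposite directions on the deposited scale; small points are samples, joined points with bars are means and SD (n = 3), and colour is limma's call. Chek1 has 4 probe sets called higher and 1 lower (a difference of -1.87), and Rad51c has 1 at 1.23 and 1 at -1.88. None of these rises is called with equal hybridization controls or equal poly-A controls when all arrays are kept.

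Changes within an array do not depend on a shift of that array, so partner genes were also compared as the difference between their changes. There were 13 such pairs, chosen after their values were seen. With 3 samples against 3, the smallest p an exact two-sided permutation test can give is 0.1, which becomes 0.12 after adjustment over the 13, so none could pass the threshold. The fall of Xrcc5 exceeded that of its Ku partner Xrcc6 by 2.47, and the within-array differences did not overlap between stages. The change of Rad50 differed from that of Mre11a by -1.19 and from that of Nbn by -1.58, both without overlap. Mre11a and Nbn differed by -0.39, with overlap (exact p = 0.5). The widest divergence was between the polymerases, where Parp1 moved 3.11 above Parp2, though other Parp1 probe sets went down. Xrcc1 moved -2.48 against the brightest probe set of its ligase gene Lig3, 2 of whose other probe sets were called lower, and Ercc1 moved -2.25 against its nuclease partner Ercc4, which was below the array median throughout.

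**Figure D5:**
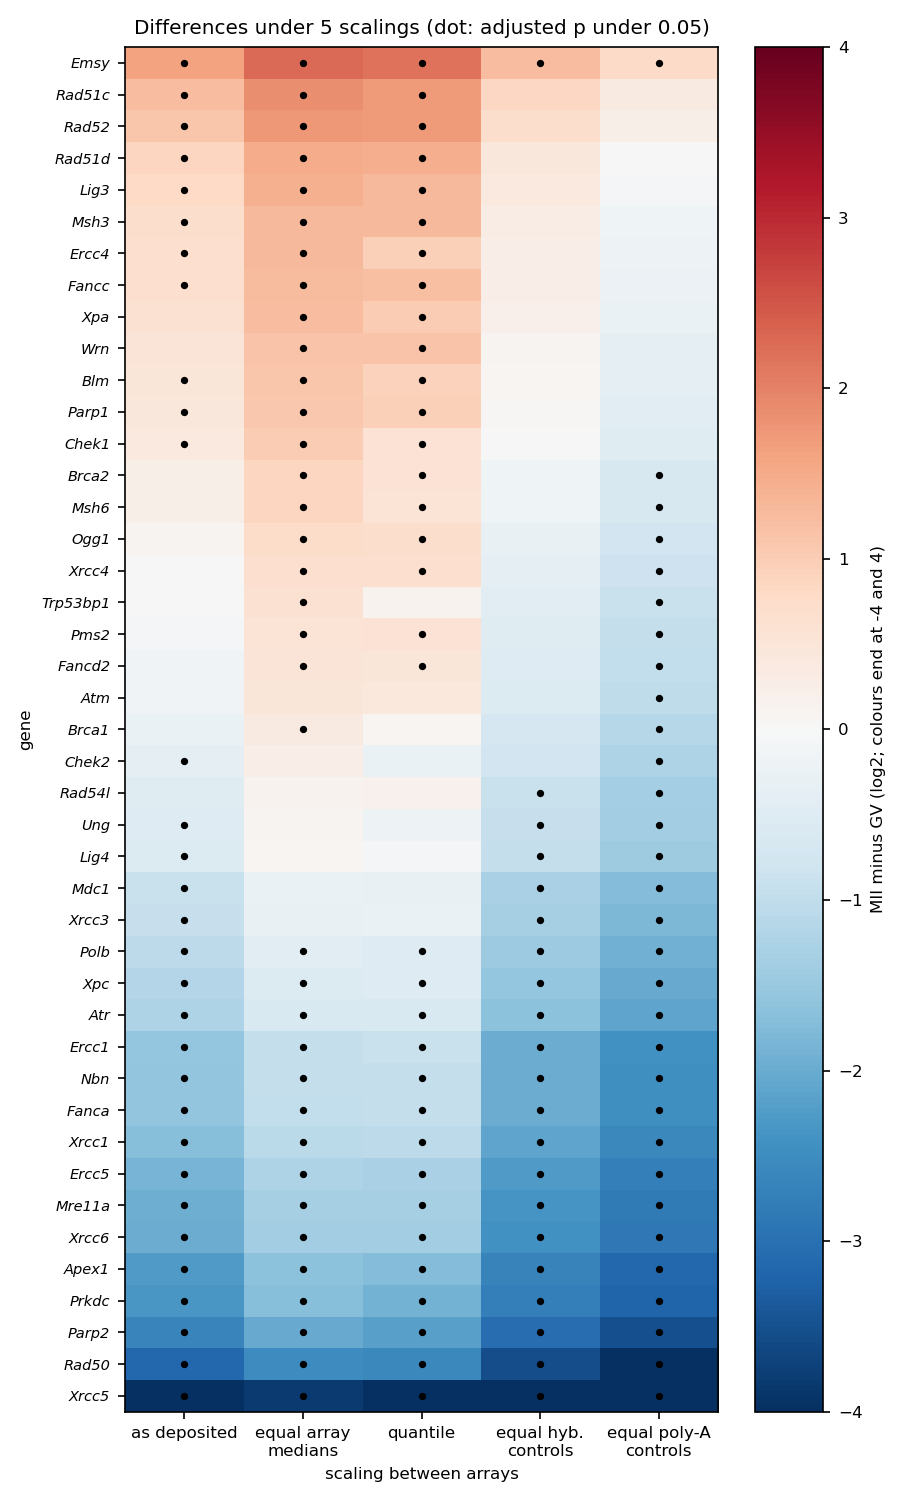
Heat map of the members' differences (MII minus GV, log2, as colour, which ends at -4 and 4) under the 5 scalings between arrays, from limma with 3 samples a stage; a dot marks a call. Xrcc5, Rad50 and the other 13 members that were lower under all 5 stay below 0 in each column, Emsy stays above 0, and smaller values such as Brca1 and Brca2 change sign.

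A wider list of other repair genes gave the setting for the members. Of 133 further symbols 107 were measured; 53 were called lower (49.5%, against 37.8% of all genes) and 12 higher (11.2%, against 10.5%), with a median of -0.42, and 33 (30.8%, against 22.2%) were lower under all 5 scalings. With equal array medians 49 were higher (45.8%, against 52.2% of all genes) and 33 lower (30.8%, against 22.5%). With quantile normalization 46 were higher (43.0%, against 34.5%) and 39 lower (36.4%, against 24.5%). Among other recombination genes, 18 of 28 were lower (64.3%, against 37.8% of all genes) and 2 higher (7.14%, against 10.5%). Rpa2, a subunit of the single-strand binding protein RPA, was lower by -4.34 ± 0.18 (adjusted p = 5e-08) and Nsmce4a, of the SMC5/6 complex, was highest at 0.58. Among other checkpoint genes, 10 of 18 were lower (55.6%, against 37.8%), with Topbp1, an activator of ATR, at -3.61 ± 0.24 (adjusted p = 8.4e-07). In that list 1 gene, Mdm4, was higher at 0.39 in its brightest probe set (5.56%, against 10.5%). Another of its 3 probe sets was called lower, so a single direction cannot be given for Mdm4. In base excision and single-strand repair 6 of 17 were lower (35.3%, about the share of all genes, with a median of 0.01), among them the flap endonuclease gene Fen1 at -4.04 ± 0.16 (adjusted p = 4.2e-08). In nucleotide excision 6 of 13 were lower (46.2%, against 37.8%), led by the TFIIH subunit gene Gtf2h5 at -3.94. There 1 gene, the damage sensor gene Ddb2, was higher at 0.62 (7.69%, against 10.5%).

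The smaller lists followed the same mixed course. Other Fanconi genes had 5 lower (41.7%, where 37.8% of all genes were) and 3 higher (25%, where 10.5% were) of 12. They ranged from -2.86 for the helicase gene Brip1 to 0.76 for the nuclease gene Dclre1b. Other end-joining genes had 2 lower (40%) and 1 higher (20%) of 5, with a median of 0.18, or 0.80 with equal array medians. Among them Aplf was at -0.96 and the brightest probe set of Nhej1, a partner of XRCC4, at 0.77. The other Nhej1 probe set was called lower, so a single direction cannot be given for Nhej1. Other mismatch repair genes had Mlh3 at -0.71, below the array median in every sample, and the meiotic gene Msh4 at 0.71. These rises of Nsmce4a, Mdm4, Ddb2, Dclre1b, Nhej1 and Msh4 were not called with equal hybridization or poly-A controls, and their values with poly-A controls lay below 0, from -0.48 for Mdm4 to -0.11 for Nhej1. The falls of Aplf and Mlh3 were not called with equal array medians.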

How the data were processed

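Expression was measured on an Affymetrix mouse array in 3 GV and 3 MII samples. The values were deposited by the authors as log2 signals; per the submitters' processing notes RMA and the affy package were used, with no version named. The same 7077 distinct values (1.85 to 13.3) occurred on each array. Of 21702 features, 56 controls were set aside and 21646 probe sets tested with no further filter: 19078 with 1 symbol, 550 with several and 2018 with none. Whether these are all the features of the array was not established. The array medians and the shares of all genes rest on them.

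Stages were compared with limma's lmFit and eBayes (limma 3.58.1, R 4.3.3; group only, two-sided), with Benjamini-Hochberg adjustment over all probe sets and a threshold of 0.05. The script was tested on simulated data. The number of arrays limits the precision, and p-values measure the spread between these samples. A gene took its brightest probe set with 1 symbol (11429 genes). The members and lists were chosen with earlier results of these data known. Values are given in full for the 12 called members with the largest differences, for Atm, Atr, Chek1, Chek2, Brca1, Brca2, Trp53 and Emsy where measured, and for members with opposite calls; of other repair genes, the largest called fall and rise per group are named. Alternatives were 4 scalings, a filter on low values, 2 variance models, a replicate block, other rules for probe sets and leaving out each sample. Scaling by hybridization controls with GV replicate 1 left out of both the scaling and the fit was 1 more, added after seeing the data. Control features for scaling were 18 hybridization and 21 poly-A probe sets.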

Additional observations from a re-analysis of the deposited data

How the results depend on the processing

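Counts of calls are given here as higher and lower. As deposited they were 11 and 20 member genes, 15 and 37 member probe sets, 12 and 53 other repair genes, and 2358 and 7376 probe sets in all. With equal array medians they were 21 and 15, 39 and 25, 49 and 33, and 12016 and 4306. With quantile normalization they were 19 and 15, 34 and 25, 46 and 39, and 7538 and 4794. With equal hybridization controls they were 1 and 20, 1 and 37, 0 and 52, and 104 and 7179. With equal poly-A controls they were 1 and 30, 1 and 64, 0 and 89, and 65 and 18380. With equal hybridization controls and GV replicate 1 left out, a setting added after seeing the data, they were 2 and 29, 2 and 59, 0 and 73, and 190 and 15697. For the 3 counts of 0 by limma, 0 genes were also higher at an unadjusted p under 0.05. A scale from controls adds 1 error per array that every gene shares, and the p-values under it treat genes as if they varied alone. With the filter on low values they were 9 and 14, 11 and 23, 11 and 38, and 1758 and 4438, since fewer probe sets were tested. Without moderation they were 6 and 19, 9 and 34, 10 and 46, and 1279 and 6199. Leaving out types ending in a, s or x gave 6 and 18, 9 and 23, 9 and 43, and 1642 and 4839, and the mean over probe sets gave 5 and 23 member genes and 12 and 48 other repair genes. Without 1 sample the ranges were 6 to 11 and 18 to 19 member genes, 7 to 12 and 32 to 36 member probe sets, 7 to 10 and 48 to 52 other repair genes, and 1547 to 2127 and 6668 to 6958 probe sets.

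Some member values changed sign. With equal array medians Atm was at 0.47, Brca1 0.36, Chek2 0.26, Fancd2 0.50, Lig4 0.08, Pms2 0.54, Rad54l 0.13, Trp53bp1 0.61 and Ung 0.12. With quantile normalization Atm was at 0.41, Brca1 0.07, Fancd2 0.49, Pms2 0.58, Rad54l 0.16 and Trp53bp1 0.15. With equal hybridization controls Brca2 was at -0.17, Chek1 at 0.00 after rounding, Msh6 -0.18, Ogg1 -0.29 and Xrcc4 -0.37. In 1 more setting GV replicate 1 was left out of that scaling and of the comparison, so the values also reflect the loss of that sample. There Brca2 was at -0.57, Chek1 -0.22, Blm -0.05, Wrn -0.66, Xrcc4 -0.78, Parp1 -0.38, Ogg1 -0.52, Xpa -0.19, Msh3 -0.17 and Msh6 -0.46. With equal poly-A controls Blm was at -0.38, Brca2 -0.64, Chek1 -0.47, Ercc4 -0.19, Fancc -0.22, Lig3 -0.08, Msh3 -0.18, Msh6 -0.65, Ogg1 -0.76, Parp1 -0.42, Rad51d -0.02, Wrn -0.36, Xpa -0.27 and Xrcc4 -0.84. With the mean over probe sets Lig3 was at -0.37, Msh3 -0.09, Parp1 -0.59, Rad51c -0.32, Rad51d -0.05 and Trp53bp1 0.09, and without the shared types Lig3 was at -1.02, Msh3 -0.56, Rad51d -0.97 and Trp53bp1 0.20. Without 1 sample Atm ranged from -0.43 to 0.29, Fancd2 from -0.23 to 0.00, Pms2 from -0.20 to 0.06, Trp53bp1 from -0.09 to 0.07 and Xrcc4 from -0.08 to 0.13. The cause was not tested, beyond the construction of the scalings and of the rules for probe sets.

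Of the 31 called members, 24 kept their call without each sample, and Chek1, Chek2, Blm, Parp1, Ung, Ercc4 and Msh3 lost it at least once. The samples share only replicate numbers: deviations of same-numbered samples correlated at 0.09, 0.03 and 0.03, and the replicate block gave 9 and 19 member genes, 13 and 35 member probe sets, 12 and 54 other repair genes, and 2400 and 7300 probe sets. Signals below the array median, as for Chek2, Mdc1, Xpa and Ercc4, limit what a difference can show.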

Other observations

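Translesion synthesis, in which polymerases with open active sites copy past damaged bases, was a separate list of 11 measured genes. By limma 5 were lower in MII oocytes (45.5%, where 37.8% of all genes were) and 3 higher (27.3%, where 10.5% were). The ubiquitin-conjugating enzymes of this route parted: Ube2b read 7.08, 7.36 and 7.17 in GV and 4.89, 5.11 and 5.28 in MII samples (-2.11 ± 0.15, adjusted p = 1.7e-06), while its close relative Ube2a read 8.42, 8.73 and 8.95 against 9.72, 9.03 and 9.47 (0.71 ± 0.21, adjusted p = 0.018). The stages did not overlap for either, but a second Ube2a probe set was called lower, and the brightest turned to -0.17 with equal poly-A controls. Among the polymerases, Poli was lower at -1.19 and Polh at -0.79, both below the array median in every sample. Polk (0.61) and Rev1 (0.60) were called higher, and both turned to -0.27 with equal poly-A controls. Ube2b, Poli and Ube2v2 (-1.18) were lower under all 5 scalings.

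The chromatin signal at a break, chosen here after its values were seen, runs from H2AX through MDC1 to the ubiquitin ligases RNF8 and RNF168 and on to 53BP1. H2ax read 8.61, 8.82 and 8.55 in GV and 5.37, 5.81 and 5.87 in MII samples, a difference of -2.98 ± 0.17 (adjusted p = 3.2e-07 by limma). Mdc1, below the array median in every sample, was lower by -0.88 ± 0.15, a call lost at -0.26 with equal array medians. Rnf8 was lower by -1.09 ± 0.16 (adjusted p = 0.00035) and Rnf168 by -1.20 ± 0.15 (adjusted p = 8.7e-05), each without overlap between stages. A second Rnf168 probe set was not called. Trp53bp1, last in this order, was at -0.01 and not called as deposited. It was called higher at 0.61 with equal array medians and lower at -0.88 with equal poly-A controls.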
